A study of Mus musculus with 40 samples.

Results

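Fatty acid beta-oxidation genes are described here through the histone marks at their start sites and in their surroundings in brown adipose tissue. The 10 genes were listed by name: Cpt1a, Cpt1b, Cpt2, Slc25a20, Acadm, Acadl, Acadvl, Hadha, Hadhb and Acaa2. No measured value was used as a rule to pick them, but earlier results of these data were known. All 10 were found among the 21884 protein-coding genes with a unique symbol in the annotation used. For each gene, peaks of 4 histone marks were taken over the gene body and 10 kb each side.

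Beta-oxidation breaks fatty acids down in the mitochondrial matrix and yields acetyl-CoA and reduced electron carriers. Long-chain fatty acids enter on carnitine: a carnitine palmitoyltransferase of the outer membrane (Cpt1a or Cpt1b) loads them, the carrier Slc25a20 moves the acylcarnitine across the inner membrane, and Cpt2 returns the fatty acid to coenzyme A. In the matrix, acyl-CoA dehydrogenases of different chain length preference (Acadvl, Acadl, Acadm) start each round, the trifunctional protein made of Hadha and Hadhb carries long chains through the next steps, and the thiolase Acaa2 releases acetyl-CoA from shorter chains. In brown adipose tissue this oxidation feeds heat production by Ucp1. Of the marks, H3K4me3 lies at active start sites, H3K27ac at active start sites and enhancers, H3K4me1 mainly at enhancers, and H3K27me3 at genes silenced by Polycomb proteins.

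ChIP-seq of the 4 marks was run on the brown fat of 8 C57BL/6N mice, wild type and aged 20 weeks, and each of the 32 libraries gave 1 list of peaks. Mice 1 and 2 were warm on normal chow diet (NCD), mice 4 and 5 were cold on NCD, mice 7 and 8 were warm on high-fat diet (HFD), and mice 10 and 11 were cold on HFD. Cold mice spent 24 h at 4 °C, and HFD was fed for 12 weeks from 8 weeks of age. The sources call the depot both interscapular and inguinal, and a sentence of the methods could mean that each experiment used tissue of 2 mice, so the spread between lists may not be that between single animals. The tissue was whole, so a mark present in fewer cells and a weaker mark in each cell cannot be told apart.

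Lists held 13517 to 24104 peaks for H3K4me3 and 3224 to 40604 for H3K27ac, 12 to 27568 for H3K4me1 and 20 to 6428 for H3K27me3. The H3K27ac list of mouse 7 was the shortest, and the H3K4me1 lists of mice 7 and 10 held 12 and 18 peaks, so a missing peak in these lists means only that none was detectable. Because fold enrichment was computed within a library, each peak was ranked within its own list, and its percentile is the percent of that list with an equal or lower fold. Of 7 brown adipocyte markers, 6 or 7 had an H3K4me3 peak at the start site in every mouse, and of 3 liver markers none had one. H3K4me3 peaks were found at 3 or 4 of 4 endothelial, 0 to 2 of 4 macrophage and 0 or 1 of 3 neuronal markers. Of 7 skeletal muscle markers, Ckm, Myh4, Myh1 and Tnnt3 had no H3K4me3 peak in any mouse, Acta1 and Pygm had one in 4 mice each, and Mylpf had one in all 8, at a median percentile of 75.5.

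Hadha and Hadhb are neighbours, and the other genes lie on chromosomes of their own. Cpt1a (ENSMUSG00000024900.5) spans 3322334 to 3385733 on the plus strand of chromosome 19 of GRCm38, and Cpt1b (ENSMUSG00000078937.8) spans 89416405 to 89425863 on the minus strand of chromosome 15. Cpt2 lies at 107903981 to 107923610 on chromosome 4 (minus) and Slc25a20 at 108662088 to 108684641 on chromosome 9 (plus). Acadm lies at 153922357 to 153944632 on chromosome 3, Acadl at 66830839 to 66863277 on chromosome 1 and Acadvl at 70010183 to 70015411 on chromosome 11, all on the minus strand. Hadha, at 30118304 to 30155162 on the minus strand of chromosome 5, and Hadhb, at 30155248 to 30184593 on the plus strand, are transcribed away from each other, with 85 bases between their annotated starts. Both shared the same start-site peaks in every list, so the 10 genes stand for 9 independent start sites.

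The sequence between the starts of Hadha and Hadhb is shown because these genes carried the highest-ranked peaks of both marks. Those upstream of Cpt1a and Cpt2 are shown because these are the carnitine palmitoyltransferase genes for which a RefSeq promoter was found. The stretches at these genes are from RefSeq promoters of GRCm38.p6, cut at the annotated start. The fourth, on the plus strand of the genome, is the 300 bases around the summit of the distal H3K27ac region with the highest median percentile, which is in Hadha. Capitals mark GC boxes (GGGCGG on either strand), and no other motif searched was found in these stretches.
Cpt1a, chr19:3323051-3323284, plus strand: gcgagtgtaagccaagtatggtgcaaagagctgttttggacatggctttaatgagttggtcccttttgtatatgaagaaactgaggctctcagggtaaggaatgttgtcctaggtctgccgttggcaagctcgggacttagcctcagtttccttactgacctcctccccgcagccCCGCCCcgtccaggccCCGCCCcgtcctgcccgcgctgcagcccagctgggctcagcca
Cpt2, chr4:107923611-107923839, minus strand: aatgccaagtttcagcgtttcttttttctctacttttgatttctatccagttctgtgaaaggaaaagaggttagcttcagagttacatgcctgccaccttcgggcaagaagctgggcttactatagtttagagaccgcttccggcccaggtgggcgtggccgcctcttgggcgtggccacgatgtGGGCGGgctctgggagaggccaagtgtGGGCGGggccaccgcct
Hadha and Hadhb, chr5:30155163-30155247, plus strand: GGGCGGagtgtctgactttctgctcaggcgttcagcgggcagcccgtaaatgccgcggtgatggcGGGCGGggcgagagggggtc
Hadha intron 7, chr5:30136090-30136389, plus strand: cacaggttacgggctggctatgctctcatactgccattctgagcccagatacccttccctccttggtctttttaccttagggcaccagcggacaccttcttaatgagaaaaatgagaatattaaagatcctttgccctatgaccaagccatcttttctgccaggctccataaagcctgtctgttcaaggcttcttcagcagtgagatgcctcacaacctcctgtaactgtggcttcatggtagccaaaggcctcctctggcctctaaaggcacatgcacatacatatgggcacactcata

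RefSeq promoters of 250 bases before to 50 after the start were found for 8 of the 10 genes, not for Cpt1b and Acaa2. A GC box was present in 6 of the 8, all except Acadm and Acadvl, against 35.9% of 27025 promoters in the table. That share is over promoters with and without H3K4me3, and the share among marked promoters was not computed. The promoters of Hadha and Hadhb overlap, so they are not separate counts. The CCAAT box was found in Cpt1a alone (37.9% of all promoters). None of the 8 held TGACGTCA, the cAMP response element (1.88%), TNAAGGTCA, a site of estrogen-related receptors (1.26%), or 2 copies of AGGTCA in the same direction with 1 base between them, a site of PPAR and its partner receptors (0.0444%). Both strands were searched, and the estrogen-related receptor site contains AGGTCA. The last of these motifs is so rare in this exact form that its absence from 8 promoters says little.

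H3K4me3 marked the start sites of all 10 genes. With the summit within 1000 bp of an annotated transcription start site (TSS), 9 of the 10 genes had a peak in all 8 mice, against 41.5% of protein-coding genes. Cpt1b had one in 6 mice, and in mice 7 and 11 its nearest peak reached the window with a summit farther away. When any peak reaching the window was counted, all 10 genes had H3K4me3 in all 8 mice (43.3% of protein-coding genes). The median percentile over mice had a median of 82.3 over the 9 genes and of 77.8 over the 9082 genes marked in all 8 mice, and the median width was 2908 bp and 1563 bp. These are descriptions of a named list and were not tested.

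Among the genes of the carnitine route, H3K4me3 ranked lower at the outer membrane enzymes than at the carrier and Cpt2 by the median. Slc25a20 had a median percentile of 86.2 (65.0 to 96.8), Cpt2 of 79.9 (53.6 to 98.1) and Cpt1a of 66.3 (11.9 to 74.8) over 8 mice. Cpt1b had a median of 54.6 (22.6 to 73.7) in the 6 mice with a summit near its start. The lowest value of Cpt1a was in mouse 7, whose list was the shortest, and its other 7 values were between 52.2 and 74.8. The ranges of these 4 genes overlapped, and Slc25a20 and Cpt2 changed places with the diet and the ranking. In NCD mice the medians were 76.8 for Slc25a20 and 85.1 for Cpt2, and ranked by −log10 p they were 83.1 and 86.9 over 8 mice.

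Among the matrix enzymes, which include Acaa2 at 74779197 to 74806208 on the plus strand of chromosome 18, Hadha and Hadhb stood highest. Their shared H3K4me3 peak was at percentiles 99.5 and 99.2 in mice 1 and 2, 95.6 and 99.7 in mice 4 and 5, 97.3 and 92.0 in mice 7 and 8, and 99.6 and 99.8 in mice 10 and 11. It was the 53rd to the 1530th highest peak of its list, and no mouse had it below the 90th percentile. Acadvl had a median percentile of 91.4 (57.6 to 99.3), Acaa2 of 82.3 (75.4 to 95.6), Acadl of 76.4 (4.25 to 95.01) and Acadm of 73.7 (45.1 to 94.7). Acadl, the long-chain dehydrogenase, varied most, with 18.5 in mouse 7 and 4.25 in mouse 10 against 47.9 to 95.01 in the other 6 mice. The peak of mouse 7 was 449 bp wide, at a width percentile of 33.8 in its list. That of mouse 10 was 2330 bp wide, at a width percentile of 94.9, so its rank was low in fold and not in width.

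**Figure D1:**
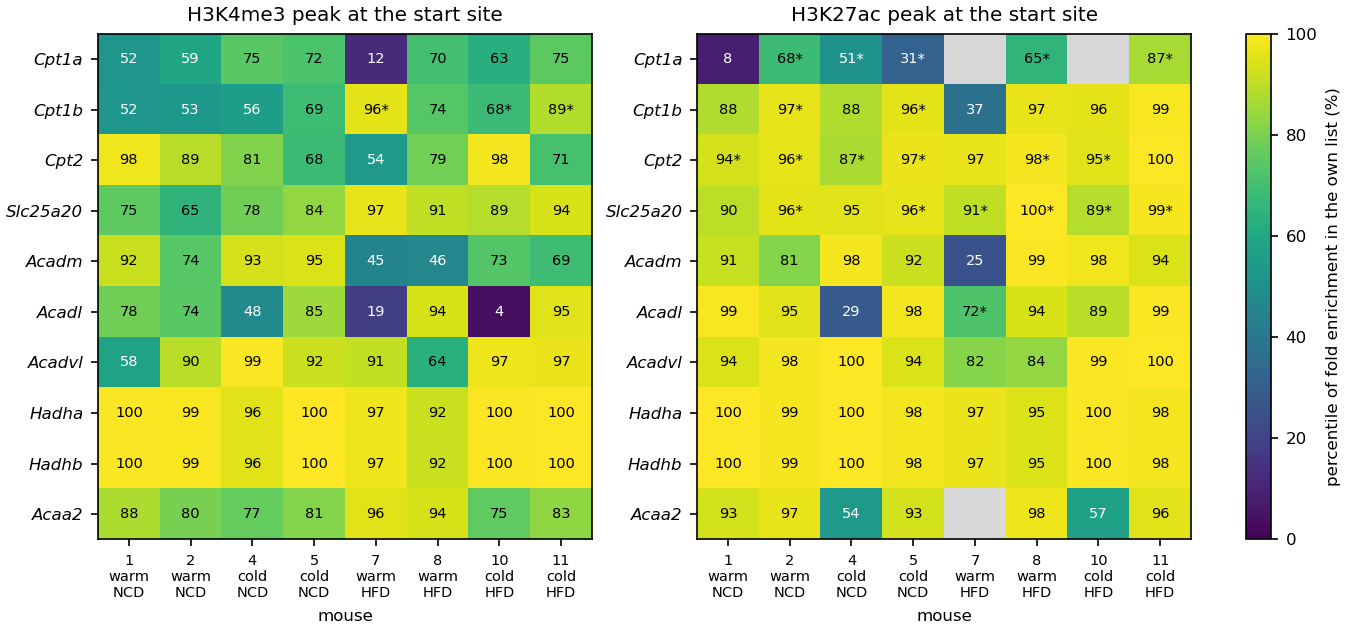
Percentile of fold enrichment within the own list (colour and number, %) of the highest H3K4me3 (left) and H3K27ac (right) peak reaching within 1000 bp of a start site, for each gene and mouse, and an asterisk marks a summit farther than 1000 bp. Grey means no peak, which for H3K27ac was so in mice 7 and 10 at Cpt1a and in mouse 7 at Acaa2, and Hadha and Hadhb stay above the 90th percentile throughout.

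H3K27ac was also found at every gene, but where its summit lay divided them. With a summit within 1000 bp of a TSS, Acadm, Acadvl, Hadha and Hadhb had a peak in all 8 mice, 4 of the 10 genes, against 3.11% of protein-coding genes. Cpt1b, Acadl and Acaa2 had one in 7 mice, with mouse 2 missing for Cpt1b and mouse 7 for the others. Cpt1a had one in 4 mice, and Cpt2 and Slc25a20 had one in 2 mice each. When any peak reaching the window was counted instead, 8 of 10 genes were marked in all 8 mice, against 3.74% of protein-coding genes, and the exceptions were Cpt1a with 6 and Acaa2 with 7. Both contrasts depend on the short list of mouse 7, where 8 of the 10 genes had a peak reaching the window. Without mouse 7, 6 of the 10 genes and 15.3% of protein-coding genes had an H3K27ac summit in every mouse.

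At Hadha and Hadhb the H3K27ac peak was at percentiles 99.6 and 98.8 in mice 1 and 2, 99.97 and 98.3 in mice 4 and 5, 96.9 and 94.8 in mice 7 and 8, and 99.6 and 98.1 in mice 10 and 11. It was the 11th highest peak of its list in mouse 4, and it ranked lowest in mouse 8. Acadvl, which acts on very long chains, had a median percentile of 96.3 (81.9 to 99.8), and Acadm, which acts on medium chains, of 93.2 (25.1 to 99.3), with its lowest value in mouse 7. Over these 4 genes the median was 97.4, and over the 680 genes marked in all 8 mice it was 93.5.

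The H3K27ac summits of Cpt2 and Slc25a20 lay downstream of the start, in intron 1 at the median position. At Cpt2 they were 958 to 1836 bp downstream in the 8 mice (median 1180 bp), while its H3K4me3 summits were 145 to 342 bp downstream. At Slc25a20 they were 583 to 1435 bp downstream (median 1172 bp) and the H3K4me3 summits 178 to 883 bp. These displaced peaks ranked high, at percentiles of 87.4 to 99.7 for Cpt2 and 89.0 to 99.8 for Slc25a20. At Cpt2 the lowest H3K27ac offset exceeded the highest H3K4me3 offset, and at Slc25a20 the ranges overlapped.

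Cpt1a, the form of the outer membrane enzyme best known from liver, was the gene with least H3K27ac at its start. In the 4 mice with a summit within 1000 bp, percentiles were 8.30 and 18.0 in mice 1 and 2, 2.90 in mouse 5 and 13.5 in mouse 8. In mice 2, 4, 5, 8 and 11 a higher peak reached into the window from intron 1, with summits 2065 to 2541 bp downstream and percentiles of 68.4, 51.1, 31.4, 65.5 and 87.0. Mice 7 and 10 had no H3K27ac peak there. At Cpt1b, the form of muscle and brown fat, the H3K27ac percentile was 36.97 in mouse 7, in a peak of 217 bp, and 88.1 to 99.0 in the other 7 mice. In mice 2 and 5 the highest peak reaching the Cpt1b window had its summit at −3862 and −3801 bp from the start. The starts of the neighbouring genes Chkb, Gm44502 and C730034F03Rik lie 4036, 3833 and 3726 bp from that of Cpt1b. These values therefore cannot be assigned to Cpt1b alone.

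Of all 78 H3K4me3 summits counted at the 10 genes and 8 mice, 83.3% were downstream of the TSS, and of 61 H3K27ac summits 67.2%. Over all protein-coding genes these shares were 78.5% and 62.8%. At Hadha the H3K27ac summits were 294 to 470 bp downstream in every mouse, which is upstream of Hadhb, while the H3K4me3 summit fell on the Hadha side in mice 1, 7 and 10 and on the Hadhb side in the other 5.

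**Figure D2:**
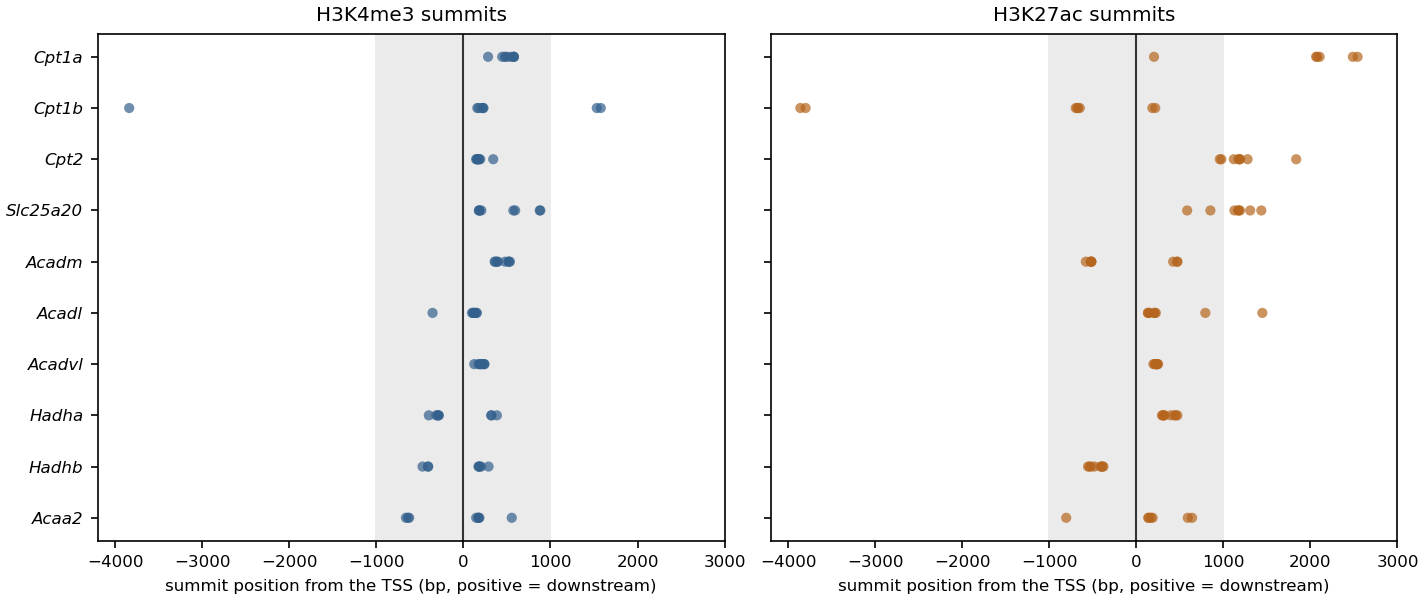
Position of the summit of the highest peak reaching the start-site window, in bp from the nearest TSS of the gene (positive is downstream), for H3K4me3 (left) and H3K27ac (right), 1 point for each mouse with a peak, with 1000 bp each side shaded. H3K27ac summits lie to the right of those of H3K4me3 at Cpt2, at Cpt1a except in mouse 1, and with overlap at Slc25a20. The points far upstream of Cpt1b are from peaks shared with its neighbours.

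The peaks at Hadha and Hadhb were also unusually wide. H3K27ac covered 9252 and 6281 bp in mice 1 and 2, 14543 and 5168 bp in mice 4 and 5, 1065 and 11533 bp in mice 7 and 8, and 14043 and 21595 bp in mice 10 and 11. The peak was among the 10 widest of its list in 5 mice and it was lowest within the list in mouse 7, at a width percentile of 93.1. H3K4me3 covered 1579 bp in mouse 7 to 12822 bp in mouse 11, where it was the widest of the list. Mouse 7 had the narrowest peak of both marks.

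Whether H3K4me3 peaks were wider than H3K27ac peaks at the same start was tested in the 636 genes with both marks in all 8 mice, by an exact permutation test of log10 width over 8 and 8 libraries. H3K4me3 was wider in 31% of these genes and H3K27ac in 0.472% (adjusted p below 0.05), and without mouse 7 H3K4me3 was wider in 64.3% of the 3214 genes then tested. Of the 4 genes that could be tested, H3K4me3 was wider at Acadvl, with a mean of 1891 bp against 1222 bp, in 8 of 8 mice (exact permutation p = 0.00528, Benjamini-Hochberg adjusted p = 0.0227 over all genes). This did not hold without mouse 1 or without mouse 10 (exact permutation test, adjusted p = 0.0548 and 0.0708). At Acadm the means were 2177 and 1959 bp, with H3K4me3 wider in 5 of 8 mice (exact permutation test, adjusted p = 0.519). Hadha and Hadhb went the other way, with 5141 bp for H3K4me3 and 10435 bp for H3K27ac and H3K4me3 wider in 1 of 8 mice, which did not pass either (exact permutation test, adjusted p = 0.248, and 0.0523 within mice). The other 6 genes lacked an H3K27ac or an H3K4me3 summit at the start in at least 1 mouse and were not tested.

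**Figure D3:**
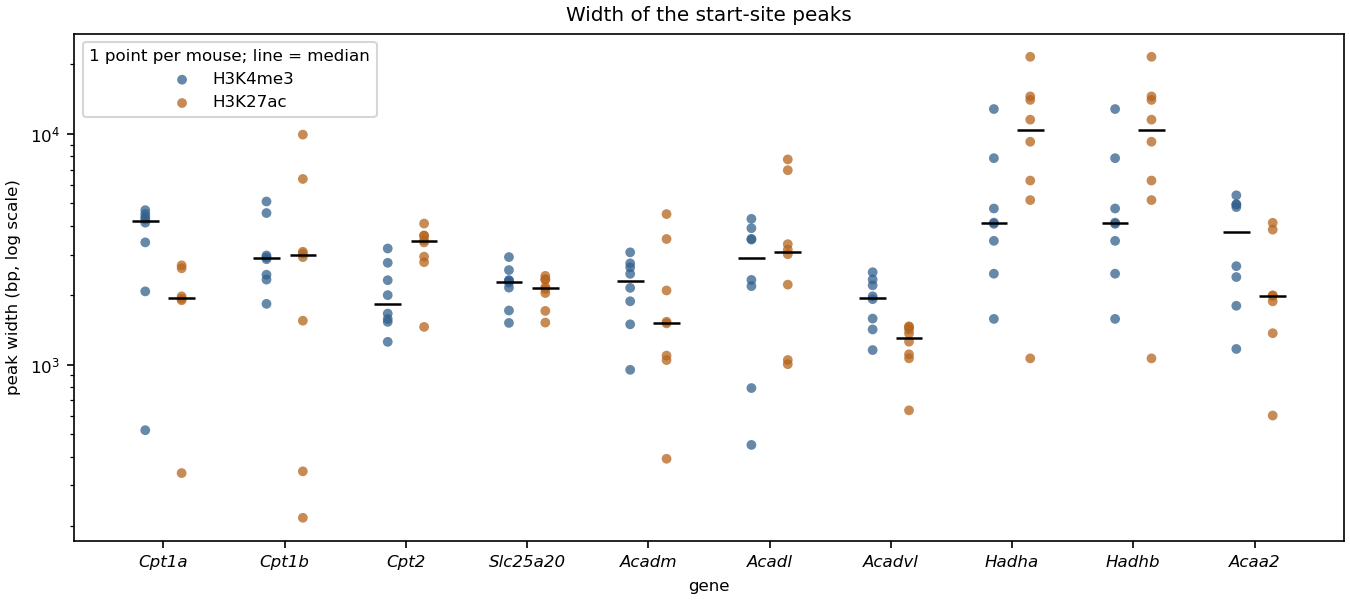
Width of the peaks reaching the start-site window (bp, log axis) for H3K4me3 (blue) and H3K27ac (brown), 1 point for each mouse with a peak, with the median as a line. H3K27ac at Hadha and Hadhb reaches 21595 bp, and at Acadvl H3K4me3 was wider than H3K27ac in 8 of 8 mice.

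Cold and warm mice were compared first. Percentiles at the start site were compared between 4 cold and 4 warm mice by a two-sided exact permutation test, with a call where the groups did not overlap, the smallest p the design allows (0.0286). Of 9 genes tested for H3K4me3, 1 was called. Acadvl was at 99.3, 91.8, 97.3 and 97.1 in the cold mice 4, 5, 10 and 11, and at 57.6, 89.7, 91.0 and 63.5 in the warm mice 1, 2, 7 and 8. All cold values lay above all warm values, the nearest being mice 5 and 7, and the means differed by 20.9 percentile points, 96.4 ± 3.20 against 75.5 ± 17.3 (SD, n = 4 and 4, exact permutation p = 0.0286). Over all 9082 genes, 3.3% were higher in the cold without overlap and 0.418% lower, and the 9 genes are 8 separate start sites, so that nothing is read from 1 call. After Benjamini-Hochberg adjustment no gene passed (exact permutation test, adjusted p = 0.768 for Acadvl, the lowest of any gene). The groups overlapped when start-site peaks were ranked only against each other (77.1 to 98.2 in the cold and 13.4 to 86.9 in the warm) or by −log10 p (91.2 to 97.4 and 69.3 to 94.2).

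The other 8 genes overlapped between temperatures in H3K4me3. Cpt1a came closest, with 74.6, 71.6, 62.6 and 74.8 in the cold and 52.2, 59.3, 11.9 and 69.99 in the warm, a difference of 22.6 (exact permutation p = 0.0571, adjusted 0.815). Ranked by −log10 p, the groups of Cpt1a did not overlap, with 67.3 to 73.4 in the cold and 15.0 to 65.5 in the warm. Under that ranking this was so for 5.24% of the 9082 genes in either direction, so nothing is read from it. Acaa2 leaned the other way, 79.2 ± 3.78 in the cold and 89.2 ± 7.20 in the warm (SD, n = 4 and 4, exact permutation p = 0.0857). For Hadha and Hadhb the difference was 1.68, within the spread between mice (exact permutation p = 0.457). In H3K27ac none of the 4 genes tested was called, where 2.79% of 680 genes were higher in the cold and 0% lower. Acadvl was also higher in the cold on average in H3K27ac, 98.3 ± 2.71 against 89.6 ± 7.96 (SD, n = 4 and 4, exact permutation p = 0.0857), with overlap through mouse 5 at 94.2 and mouse 2 at 98.3. H3K4me3 lists held 17195 to 24104 peaks in the cold and 13517 to 21024 in the warm. Of 7 skeletal muscle markers, 1 to 3 had H3K4me3 at either temperature, and the muscle gene Mylpf was higher in the cold without overlap, at 76.7 to 87.6 against 55.2 to 74.3. The part of list length and of muscle in the difference at Acadvl was not tested.

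**Figure D4:**
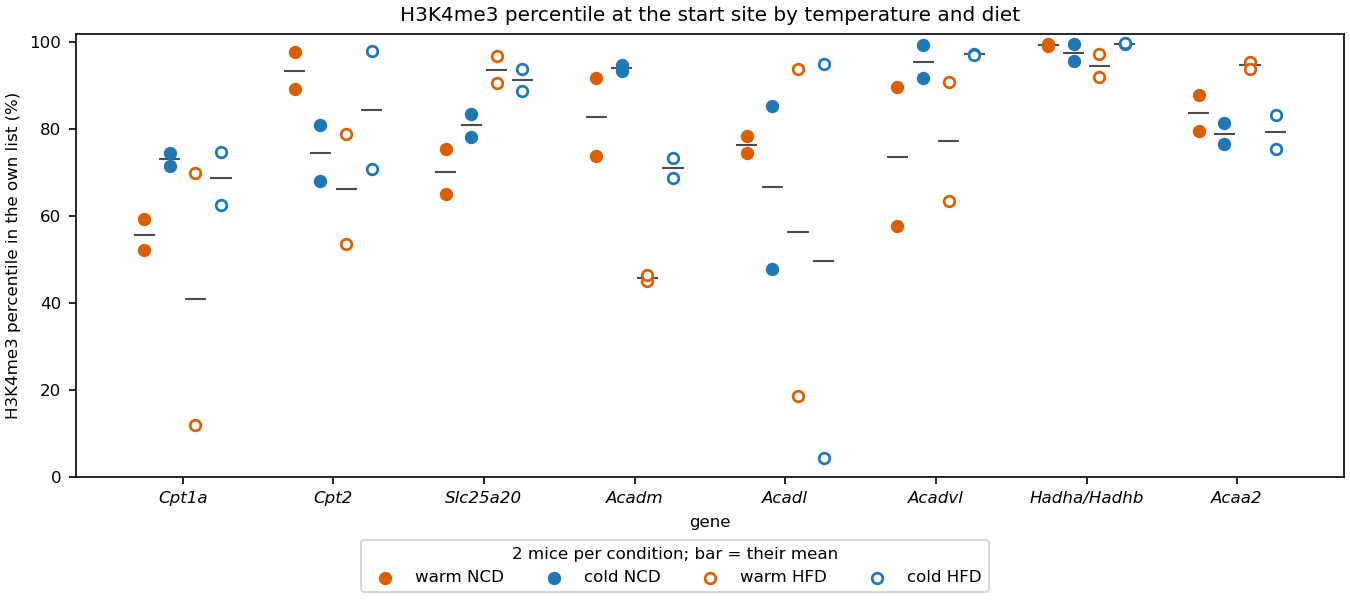
H3K4me3 percentile at the start site (%) for each gene with a summit in all 8 mice, by temperature (blue cold, orange warm) and diet (filled NCD, open HFD), 1 point for each mouse and a bar at the mean of the 2 mice of a condition. All cold points of Acadvl lie above its warm points, all open points of Slc25a20 above its filled ones, and all open points of Acadm below its filled ones.

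The same start sites were then compared between HFD and NCD mice. Of the 9 genes, 2 were called in H3K4me3, in opposite directions. Slc25a20, the carnitine carrier, was higher in HFD, at 96.8, 90.6, 88.8 and 93.9 in mice 7, 8, 10 and 11, against 75.4, 65.0, 78.2 and 83.6 in the NCD mice 1, 2, 4 and 5. The difference in means was 17.0, 92.5 ± 3.53 against 75.6 ± 7.82 (SD, n = 4 and 4, exact permutation p = 0.0286). All 4 HFD mice lay above all 4 NCD mice, also when start-site peaks were ranked only against each other and when ranked by −log10 p. By −log10 p, 4.58% of the 9082 genes did not overlap by diet in either direction. For the ranking of start-site peaks against each other this share was not counted.

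Acadm was lower in HFD, at 45.1, 46.4, 73.4 and 68.8 in mice 7, 8, 10 and 11, against 91.8, 73.9, 93.4 and 94.7 in mice 1, 2, 4 and 5. The means were 58.4 ± 14.8 and 88.5 ± 9.77 (SD, n = 4 and 4), a difference of −30.0 (exact permutation p = 0.0286). The nearest mice were HFD mouse 10 and NCD mouse 2, and the groups overlapped when start-site peaks were ranked only against each other (9.87 to 51.4 in HFD and 37.3 to 85.0 in NCD). Over all genes, 0.859% were higher and 2.48% lower in HFD without overlap. No gene passed adjustment (exact permutation test, adjusted p = 0.856 for both genes, the lowest of any).

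In H3K27ac none of the 4 genes was called by diet (0.147% of genes higher in HFD and 3.97% lower). Hadha and Hadhb were 97.4 ± 2.02 in HFD and 99.2 ± 0.751 in NCD (SD, n = 4 and 4, exact permutation p = 0.114), and without mouse 10 their groups did not overlap, as was so for 5.92% of 709 genes in either direction. H3K4me3 lists held 13517 to 24104 peaks in HFD and 20304 to 22692 in NCD. Of the 7 skeletal muscle markers, 3 had an H3K4me3 peak in each NCD mouse and 1 in each HFD mouse, since Acta1 and Pygm were marked in NCD mice alone, while Ckm, Myh4, Myh1 and Tnnt3 were marked in none. The part of list length and of muscle in the diet differences of Slc25a20 and Acadm was not tested.

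Temperature and diet were also asked together. The cold effect on NCD minus that on HFD had an exact permutation p of 0.0857 or more in H3K4me3 and of 0.171 or more in H3K27ac for these genes, so 0 of them passed (adjusted p of 0.856 or higher). No gene of any kind passed, and 224 of 9082 genes in H3K4me3 and 11 of 680 in H3K27ac had an unadjusted exact permutation p under 0.05. Among these genes the lowest p was at Cpt2, whose H3K4me3 was at 80.9 and 68.1 in cold and 97.7 and 89.3 in warm NCD mice, and at 98.1 and 70.8 in cold and 53.6 and 78.8 in warm HFD mice.

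Presence of a start-site peak followed neither factor. No gene had an H3K4me3 or H3K27ac summit in all 4 mice of a group and in none of the other, the sole pattern with a Fisher's exact p under 0.05 in this design. Over all genes with a summit in any mouse this occurred in 0.0639% for H3K4me3 and temperature, 0.177% for H3K4me3 and diet, 0.102% for H3K27ac and temperature and 0.13% for H3K27ac and diet. The H3K27ac summits of Cpt2 within 1000 bp were in HFD mice 7 and 11 and those of Slc25a20 in NCD mice 1 and 4, but peaks reaching the window were present at both genes in all 8 mice.

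Away from start sites, separate H3K27ac regions were counted most often at Hadha. Peaks of the 8 mice were merged, and merged regions over 1000 bp from every annotated TSS were called distal. The windows of the 10 genes held 35 such regions, 15 of them in 1 mouse and 7 in at least 4 mice. A region in at least 4 mice was present for 4 of the 10 genes, Cpt1b, Acadl, Hadha and Acaa2, against 29.5% of the 9082 genes with H3K4me3 in all 8 mice. Windows were of like size, with medians of 44.8 kb for these genes and 44.9 kb for the others. Hadha held 4 of the 7 regions, and the windows of Cpt1a, Cpt2, Slc25a20, Acadm, Acadvl and Hadhb held none by this rule. The rule leaves out a merged region whole when any part of it comes within 1000 bp of a TSS. Single H3K27ac summits over 1000 bp from every TSS were present in the Hadhb window in all 8 mice. Their median was 7.5 per mouse, against 10 for Hadha. Such summits were present in 7 mice at Cpt1a, Cpt2 and Acadm, in 6 at Slc25a20 and in 1 at Acadvl.

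The strongest region lay in Hadha, 18.9 kb downstream of its start, at 30134463 to 30137757 on chromosome 5, with its median summit in intron 7, and part of its sequence is given above. It was present in all 8 mice, at percentiles of 93.3 and 92.1 in mice 1 and 2, 96.8 and 90.2 in mice 4 and 5, 81.5 and 95 in mice 7 and 8, and 85.6 and 96.5 in mice 10 and 11. H3K4me1 overlapped it in mice 2, 4 and 5. Beside it, regions in introns 7, 11 and 12 of Hadha were present in 5, 4 and 4 mice, at median percentiles of 35.3, 21.5 and 37.8. None of these 3 was found in mice 1, 7 or 10, which had the shortest H3K27ac lists.

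The other regions were at Acadl, Cpt1b and Acaa2. The Acadl region, at 66869849 to 66874297 on chromosome 1, lay 8.7 kb upstream between genes and was present in every mouse except mouse 7, with a median percentile of 88.2 (47.6 to 96.3) and no H3K4me1 in any mouse. The Cpt1b region, at 89417410 to 89420066 on chromosome 15, spanned exons and introns 7.5 kb downstream of the start and was also missing in mouse 7 alone, with a median of 81.4 (14.4 to 95.7), and H3K4me3 overlapped it in the same 7 mice. The Acaa2 region lay in intron 1, 2.9 kb downstream, in 5 mice at a median of 21.6. It was overlapped by H3K4me3 in 7 mice.

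No distal region in these windows followed temperature or diet. None was present in all 4 mice of a temperature or diet and absent from the other 4, which over all 32822 distal regions occurred in 0.399% for temperature and 0.0914% for diet. The Hadha region in intron 12 was in 3 cold mice and 1 warm mouse, and that in intron 11 in 3 NCD mice and 1 HFD mouse. Around the summits of the 7 regions, 300 bases held a CCAAT box in 1 and a GC box in 1, and none held the other motifs. Over 10145 distal regions in at least 4 mice these shares were 30.4% and 5.59%.

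**Figure D5:**
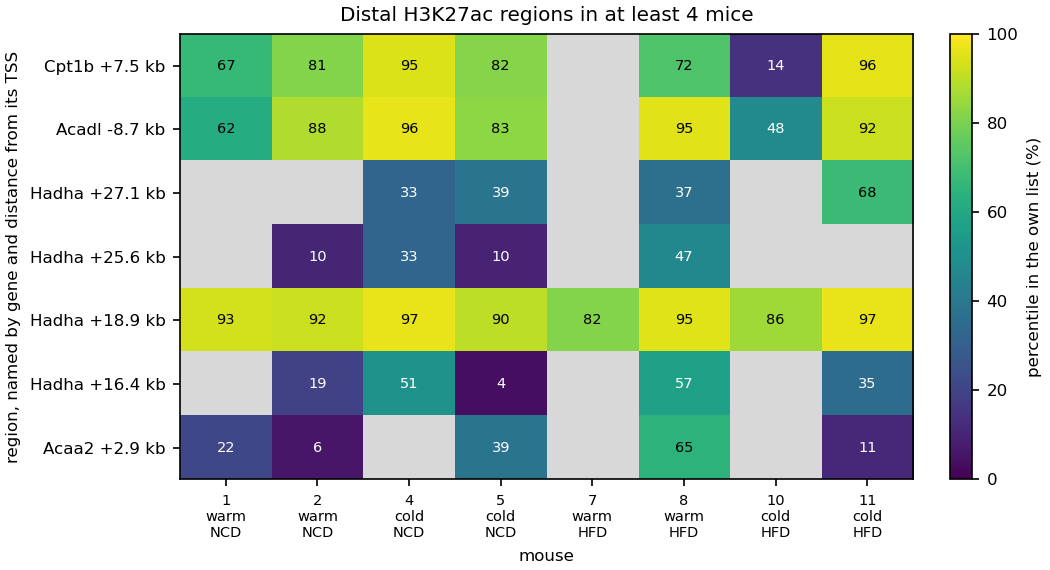
Percentile within the own H3K27ac list (colour and number, %) of the 7 distal regions found in at least 4 mice, named by gene and distance of the median summit from its start (plus is downstream), for each mouse, with grey for no peak. The region 18.9 kb into Hadha is filled in all 8 mice, at 81.5 or above.

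H3K4me1 was found mainly away from the starts. The sole H3K4me1 summit within 1000 bp of a start was at Acadm in mouse 4, at percentile 48.2, which is 1 of 10 genes where 18.6% of protein-coding genes had such a summit in any mouse and none in all 8. Distal H3K4me1 regions were present in any mouse in the windows of all 10 genes, against 61% of the 9082 genes, with 53 regions in all, of which Hadha held 13, Hadhb 11 and Cpt1a 10. In at least 4 mice there were 5 regions, and 3 of them were in Cpt1a, in introns 1, 1 and 14, at 3.1, 12.1 and 53.8 kb from its start. The region at 12.1 kb, at 3334921 to 3337261 on chromosome 19, was in mice 2, 4, 5, 8 and 11 at percentiles of 36.0 to 94.8 (median 91.8), and no H3K27ac peak overlapped it in any mouse. That at 3.1 kb was in the same 5 mice, each with an overlapping H3K27ac peak. These 5 mice are those with H3K4me1 lists of 7774 to 27568 peaks, and the lists of mice 1, 7 and 10 held no peak in any of the windows.

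H3K27me3, the mark of Polycomb silencing, was found in no window of the 10 genes in any mouse, against 6.07% of the 9082 genes with an H3K27me3 peak in at least 1 mouse. Since most H3K27me3 lists were short, with a median of 149 peaks, this rests mainly on the list of mouse 5 with 6428 peaks.

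Other genes of fatty acid oxidation were counted by list. H3K4me3 summits in all 8 mice were present at 8 of 10 genes of activation and entry, at 13 of 13 other matrix enzymes and electron transfer genes, at 9 of 11 peroxisomal genes and at 3 of 4 regulators. For H3K27ac the counts were 4 of 10, 4 of 13, 1 of 11 and 2 of 4. Acsl6 and Cpt1c, known mainly from brain, had H3K4me3 in 6 mice each and no H3K27ac. Acaa1b had H3K4me3 in 6 mice, and Acaa1a and Ppargc1a, the coactivator known for driving oxidative genes, had summits in 4 and 3 mice but a peak reaching the window in all 8. Acacb, which makes the malonyl-CoA that inhibits the outer membrane step, had H3K27ac in all 8 mice at a median percentile of 98.7.

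Of these 38 genes, 33 could be tested for H3K4me3, and 1 was called by diet. Over all 9082 genes, 0.859% were higher and 2.48% lower in HFD without overlap, so nothing is read from 1 call. Ppara, the nuclear receptor known to induce beta-oxidation genes, was at 73.7 to 95.4 in HFD and 40.3 to 71.1 in NCD. None of the 11 genes testable for H3K27ac was called by either factor. As for the 10 genes above, no adjusted value passed.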

How the data were processed

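Histone marks were measured by ChIP-seq in brown adipose tissue of 8 mice. The authors trimmed reads with cutadapt, aligned them to GRCm38 with Bowtie2 and called peaks with MACS2 against the input of the same mouse. No version or peak threshold was given in the sources used. The deposited lists hold a fold enrichment (a ratio), −log10 p and −log10 q per peak, and the deposited −log10 values served only as alternative ranks and filters. Inputs were used only through the lists.

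Peaks were assigned to genes of GENCODE M21 (basic set) by summits within 1000 bp of a TSS, with Python 3.11.15, numpy 2.4.6 and pandas 2.3.3. Percentiles within the list were compared by exact permutation tests over all protein-coding genes with a summit in all 8 mice, with Benjamini-Hochberg adjustment and a threshold of 0.05. A call was no overlap of 4 and 4 mice. Scripts were tested on simulated data. Mice of different conditions were not paired, and the same number marks the same animal across marks, so widths were also compared within mice. The precision is set by 8 mice. The 10 genes and all lists were chosen with earlier results of these data known. By rule all 10 were described, and a gene of another list was named where its presence differed from the rest or its groups did not overlap. Acacb was singled out after its values were seen. The temperature result of the other lists in H3K4me3 is not reported here.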

Additional observations from a re-analysis of the deposited data

Results flagged for a closer look

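Values were looked for that stood apart from the other 3 mice of the same temperature or diet, by Dixon's test of the highest and the lowest value. Hadha and Hadhb were counted once. Of 51 groups of 4 values, 9 stood out, against about 1 in 20 by chance.

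Mouse 4, cold on NCD, stood apart in 5 of the 9, with its values at Hadha and Acadl each counted under both temperature and diet. Its H3K4me3 percentile at Hadha was 95.6, against 99.6 to 99.8 in the other cold mice and 99.2 to 99.7 in the other NCD mice. Its H3K27ac percentile at Acadl was 28.8, against 89.5 to 99.4 in the other cold mice and 95.2 to 98.9 in the other NCD mice. That peak was 2223 bp wide, at a width percentile of 93.1, so its rank was low in fold and not in width. At Acaa2 its H3K27ac percentile was 54.0, against 93.1 to 96.7 in the other NCD mice.

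Mouse 7, warm on HFD and with the shortest H3K27ac list, stood apart in H3K27ac among HFD mice at Cpt1b, with 36.97 against 96.0 to 99.0, and at Acadm, with 25.1 against 94.4 to 99.3. Mouse 2 stood apart among NCD mice in H3K4me3 at Acadm, with 73.9 against 91.8 to 94.7. Mouse 5 stood apart among cold mice in H3K27ac at Acadvl, with 94.2 against 99.4 to 99.8.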

How the results depend on the processing

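Counts over all 8 mice depended mainly on how a peak was assigned to a start. Among the 10 genes, those with H3K27ac in all 8 mice numbered 4 with a summit within 1000 bp, 2 within 500 bp, 7 within 2500 bp and 8 with any peak reaching the window, and those with H3K4me3 numbered 9, and 5 within 500 bp. Distal H3K27ac regions fell from 7 to 3 when peaks needed a −log10 q of at least 5, since fewer peaks remain. Ranked among common start-site peaks, the genes called in H3K4me3 were 0 by temperature and 1 by diet, Slc25a20. The share called over all genes was not counted for this ranking. With summits within 500 bp none was called by diet, since Slc25a20 and Acadm then lacked a summit in some mice and could not be tested. Leaving out mice 7 and 10, chosen after seeing the data as was the peak-reaching rule for the tests between groups, gave 2 by temperature in H3K4me3 (Cpt1a and Acadvl, 13.5% of all genes), 3 by diet (Slc25a20, Acadm and Acadl, 17.3%) and 2 by diet in H3K27ac (Hadha and Hadhb, 13.7%). The causes were not tested.

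Leaving out each mouse in turn gave 1 to 3 genes for H3K4me3 by temperature, 2 to 2 by diet, 0 to 1 for H3K27ac by temperature and 0 to 2 by diet, 0 to 1 with H3K4me3 wider, 4 to 6 with H3K27ac in all mice kept, 9 to 9 with H3K4me3, 5 to 7 distal regions and 0 to 0 by presence. Over all genes tested, 5.76 to 8.02% were then called in H3K4me3 by temperature and 4.41 to 9.96% by diet. In H3K27ac the shares were 4.18 to 7.19% and 3.94 to 10.7%, and H3K4me3 was wider in 19.2 to 64.3%. Acadvl was higher in the cold by 15.0 to 26.1, Slc25a20 higher in HFD by 13.5 to 19.7, and the Acadm difference was −35.0 to −25.6. Because the groups of these 3 genes did not overlap with all mice, leaving out a mouse could neither reverse them nor make them overlap. Their ranges therefore show the size of the difference alone. In H3K4me3 by temperature, Cpt1a was also called without mouse 8 or mouse 10 (5.76% and 6.59% of all genes), Acaa2 without mouse 2 (6.91%), and Hadha and Hadhb without mouse 4 (6.14%). In H3K27ac by temperature, Acadvl was called without mouse 5 (4.81%) and Acadm without mouse 8 (5.71%). With the replicate block, which compared widths within mice, the number of genes with wider H3K4me3 was 1, as without it, and no other result was compared with the block. Under the other ways of ranking and assigning peaks, where compared, no difference of the 3 called genes reversed. List length limits the absences: mice 1, 7 and 10 had the shortest H3K27ac lists, and read depth was not compared with them here.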
